A study of Mus musculus with 4 samples.

Results

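The Rab genes encode small GTPases that mark the membranes of the vesicle traffic system. A total of 59 Rab genes was found among 19938 named genes on the array, by a platform symbol of the form Rab followed by a number and at most a letter and a digit, and each was represented by its probe set with the highest mean. The measurements were made on 4 arrays of biotin-labelled total RNA from CCR6+ group 3 innate lymphoid cells (ILC3), numbered 1 to 4, taken from naive mice of the strain C57BL/6, from their mesenteric lymph node. ILC3 are lymphocytes without rearranged antigen receptors that respond to IL-23 and IL-7. The cells were sorted as CD127+ CD90.2+ CCR6+ ST2-, all 4 samples belong to that 1 group, and the labels give neither the age or sex of the animals nor whether a sample is an animal, a pool or a separate sort.

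A Rab protein cycles between a GTP-bound state on a membrane, where it recruits motor, tethering and fusion proteins called effectors, and a GDP-bound state in the cytosol. Guanine nucleotide exchange factors (GEFs) switch it on, GTPase-activating proteins (GAPs) switch it off, and a lipid tail, added by a prenyl transferase with the help of a Rab escort protein, anchors it. Different Rabs serve the way from the endoplasmic reticulum (ER) through the Golgi, the uptake of membrane into early endosomes, its return to the surface, its passage to lysosomes, and the release of stored granules, the route by which cytotoxic lymphocytes empty their granules.

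Levels are on the log2 scale, as summarised for each probe set by RMA (robust multi-array average). A gene was called above background when its mean exceeded those of 1241 chemosensory receptor genes (for smell, pheromones, trace amines and bitter taste) strongly enough for a detection p, adjusted over all named genes, under 0.05. The lowest mean called was 6.37. As a stricter reading, a gene was said to clear the genes of other organs when it lay above all 16 of a list of genes of liver, muscle, brain and other organs on every array, since 6 of those 16 were themselves called and their highest value was 7.42. Probe sets bind with different strength, so a level is set against background and the order of genes is not an order of RNA amounts. In a sorted population, fewer cells carrying a transcript and less transcript per cell cannot be told apart.

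Over the whole table the 4 arrays had medians between 5.99 and 6.03. Pearson's r across all probe sets was between 0.964 and 0.971 in the 6 pairs, where genes are not independent replicates. RMA normalizes between arrays and pulls them together, so the close medians cannot show that the samples were alike. The 3 gate genes measured were above background and cleared the genes of other organs, Il7r (CD127) at 12.56 ± 0.06, Thy1 (the CD90.2 antigen) at 11.36 ± 0.15 and Ccr6 at 10.49 ± 0.09 (SD over the 4 arrays, as for all levels that follow), as did 6 of 6 ILC3 markers measured. The gene of ST2, for which the cells were negative, was not analysed here. Markers of other lymphocytes were also called. For comparison, 46.2% of all named genes were called and 24.7% cleared the genes of other organs. Of 11 B cell markers 10 were called, and these 10 cleared the genes of other organs. The array means of the list were 8.78, 7.86, 8.96 and 7.82 on arrays 1 to 4. Of 13 T cell markers 11 were called and 5 cleared the genes of other organs, with list means between 7.41 and 7.69. Of 12 markers of natural killer cells and ILC1 7 were called (58.3%), with list means between 6.53 and 7.04. Of these 12, 3 cleared the genes of other organs (25%). Of 14 monocyte, macrophage and granulocyte markers 2 were called and 1 cleared the genes of other organs. Of 11 dendritic cell markers 5 were called (45.5%) and 1 cleared the genes of other organs. Of 12 markers of stroma, endothelium and epithelium 6 were called, with list means between 6.23 and 6.28, and 1 of them, Pecam1 at 8.44 ± 0.18, cleared the genes of other organs. The epithelial marker Krt8 at 6.88 ± 0.14 was called but did not clear them. The epithelial markers Muc2 at 5.38 ± 0.04, Krt18 at 5.34 ± 0.24 and Epcam at 4.90 ± 0.09 were not called.

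Above background were 38 of the 59 Rab genes (64.4%), against 46.2% of all named genes. Among them were Rabs of ER to Golgi transport (Rab1a, Rab1b, Rab2a), early endosomes (Rab5a, Rab5c), recycling (Rab11a), late endosomes (Rab7) and delivery to the surface (Rab8a, Rab10). Rab3a, Rab3b, Rab3c, Rab15, Rab30, Rab31 and Rab34 were not called, and Rab3d lay just outside the limit. These genes are examples and give no split by tissue, since Rab6b, best known from neurons, was called and cleared the genes of other organs. Rab25, known from epithelia, was called close to the limit, at 6.49, and did not clear them. Rab25 lost its call without array 3 and with olfactory receptors alone as background. The median log2 level of the 59 genes was 7.02, against 6.16 over all named genes. Of the Rab genes, 21 (35.6%) cleared the genes of other organs on every array, against 24.7% of all named genes.

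**Figure D1:**
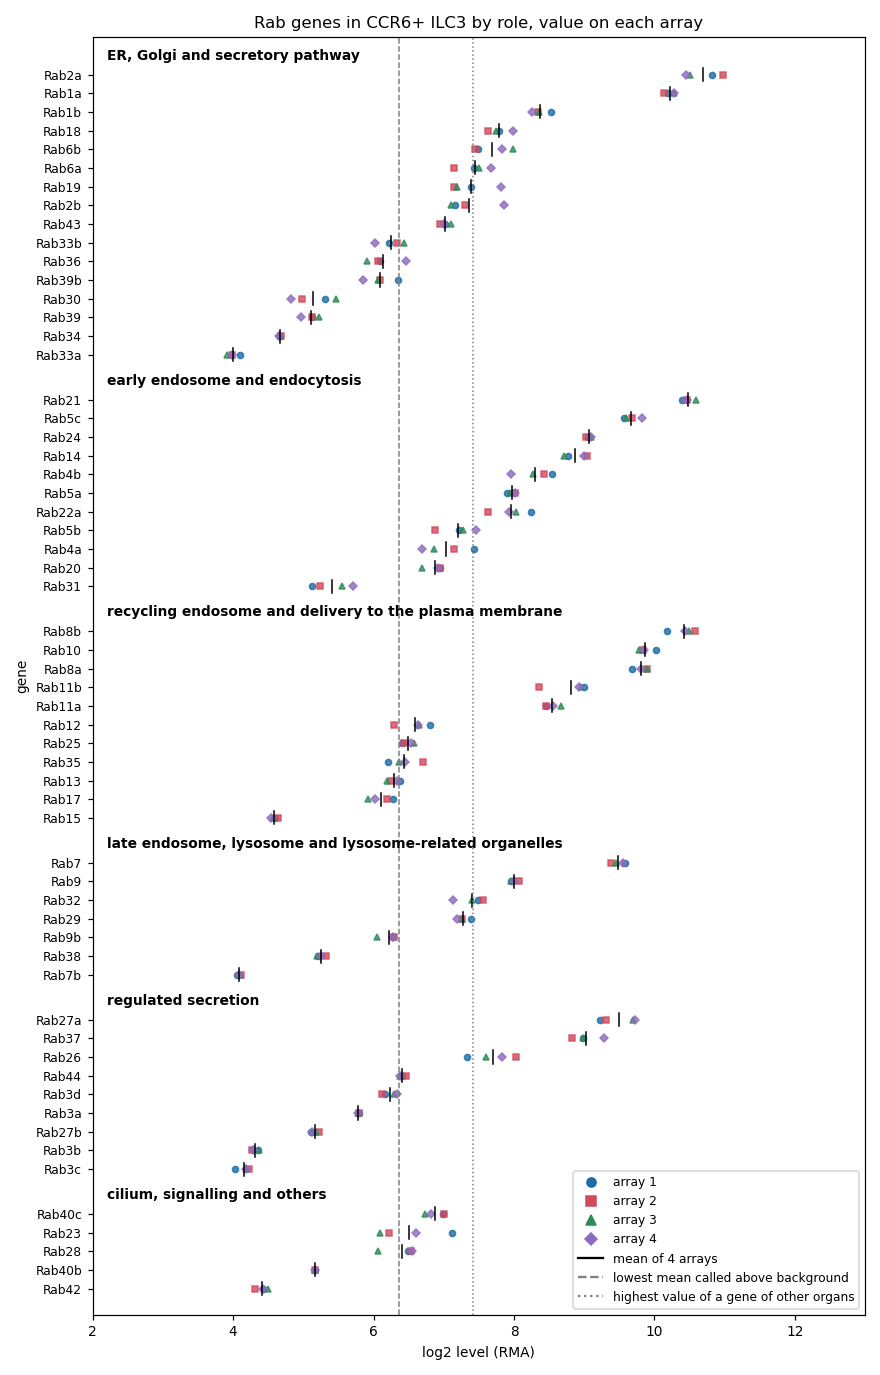
Log2 level (RMA, x axis) of each of the 59 Rab genes, grouped by role and sorted by mean. Each symbol is 1 array, the black tick is the mean of the 4 arrays, the dashed line is the lowest mean called above background (6.37) and the dotted line the highest value of a gene of other organs (7.42). In every role but the last (cilium, signalling and others) some genes lie well to the right of both lines while others lie left of the dashed line.

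The call depended on the rule for genes close to the limit. Above the 95th percentile of the background genes on every array lay 45 Rab genes, against 54.4% of all named genes, and limma's moderated test against that percentile, one-sided and adjusted over all named genes, also called 45, against 54.0% of all. Just inside the limit of the main rule lay Rab44 at 6.41 ± 0.04, Rab28 at 6.41 ± 0.23 and Rab35 at 6.43 ± 0.21. Just outside it lay Rab13 at 6.28 ± 0.08, Rab33b at 6.25 ± 0.18 and Rab3d at 6.23 ± 0.10. None of these genes cleared the genes of other organs.

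On the way from the ER through the Golgi, 9 of 16 Rab genes were above background and 5 of them cleared the genes of other organs, against 46.2% and 24.7% of all named genes. Rab1a, which brings vesicles from the ER to the Golgi, was at 10.19, 10.14, 10.28 and 10.27 on arrays 1 to 4, and its paralog Rab1b was at 8.52, 8.34, 8.35 and 8.26. Both were far above background on every array and differed little between arrays. Rab2a, which acts between the Golgi and the ER, was at 10.82, 10.97, 10.51 and 10.45, so that arrays 1 and 2 were higher than arrays 3 and 4. Rab18, known from the ER and from lipid droplets, was at 7.79, 7.62, 7.75 and 7.99, with array 4 the highest. The adjusted detection p was 0.0108 for Rab1a and Rab2a and 0.0142 for Rab1b and Rab18.

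The Golgi Rabs Rab6a and Rab6b were both called, Rab6a at 7.43, 7.15, 7.49 and 7.68 and Rab6b, which is best known from neurons, at 7.48, 7.45, 7.98 and 7.82. Array 2 was the lowest for both genes. Rab2b and Rab19 had their highest value on array 4, Rab2b with 7.16, 7.31, 7.11 and 7.86 and Rab19 with 7.38, 7.15, 7.19 and 7.81. Neither gene cleared the genes of other organs. Rab43 at 7.02 ± 0.06 was called as well. Rab33b, which acts at the Golgi and in autophagy, was at 6.22, 6.34, 6.43 and 6.01 and was not called by the detection test (adjusted p = 0.0545), but limma's test did call it. The other Golgi Rabs not called were Rab36 at 6.13 ± 0.23, Rab39b at 6.09 ± 0.20, Rab30 at 5.14 ± 0.29, Rab39 at 5.11 ± 0.11, Rab34 at 4.67 ± 0.01 and Rab33a at 3.99 ± 0.08. Among them, limma's test called Rab36 and Rab39b.

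Of the 11 early endosome Rabs, 10 were above background (90.9%) and 7 cleared the genes of other organs (63.6%), against 46.2% and 24.7% of all named genes. Rab5 proteins, of which there are 3, drive the fusion of endocytic vesicles with early endosomes, and all 3 genes were called. Rab5c was at 9.57, 9.68, 9.59 and 9.82 on arrays 1 to 4, Rab5a at 7.90, 8.02, 7.95 and 8.01, and Rab5b at 7.22, 6.88, 7.28 and 7.46. Array 2 was the lowest for Rab5b, while the 4 values of Rab5a stayed within 0.12 log2 units. Rab21, which carries integrins through endosomes, was at 10.40, 10.46, 10.59 and 10.46, and Rab22a, which acts in sorting from early endosomes, at 8.24, 7.63, 8.03 and 7.93.

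Rab14, which links endosomes and the Golgi, was at 8.76, 9.03, 8.70 and 8.99, and Rab24, which has been tied to autophagy, at 9.05, 9.03, 9.09 and 9.09. Rab24 had the smallest SD of all Rab genes above background, 0.03. Its values on arrays 3 and 4 were equal to all digits, so that this SD can be too small. The fast recycling genes Rab4a and Rab4b were called, Rab4a at 7.43, 7.14, 6.86 and 6.69 and Rab4b at 8.54, 8.42, 8.27 and 7.96. For both genes array 1 was the highest and array 4 the lowest. Rab20, known from phagosomes, was called at 6.87 ± 0.12 but did not clear the genes of other organs, and Rab31 was at 5.12, 5.24, 5.54 and 5.70 and not called.

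Of the 11 Rab genes of the recycling endosome and of delivery to the plasma membrane, 8 were above background (72.7%) and 5 cleared the genes of other organs (45.5%), against the same shares of all named genes. Rab8b was at 10.18, 10.57, 10.49 and 10.44 and its paralog Rab8a at 9.68, 9.89, 9.89 and 9.81, both with their lowest value on array 1. Rab10, which shares effectors with Rab8, was at 10.02, 9.83, 9.77 and 9.86. Rab11a, the central Rab of recycling endosomes, was at 8.46, 8.46, 8.67 and 8.56. These genes varied by at most 0.39 log2 units over the arrays. The Rab11b probe set used was at 8.99, 8.36, 8.96 and 8.93, with array 2 apart from the other 3. The other Rab11b probe set, at 6.73 ± 0.30, did not clear the genes of other organs.

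Closer to background, Rab12 was at 6.59 ± 0.22, Rab25 at 6.49 ± 0.08 and Rab35 at 6.43 ± 0.21, all called but not clear of the genes of other organs. Rab25 is a relative of Rab11a known from epithelia, and its adjusted detection p was 0.0436. Rab13, a Rab of tight junctions, was at 6.37, 6.25, 6.19 and 6.33 and not called (adjusted p = 0.0521). Rab17 at 6.10 ± 0.16, another epithelial gene, and Rab15 at 4.59 ± 0.04 were not called either. By limma's test, Rab13 and Rab17 were called.

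On the way to lysosomes, 4 of 7 Rab genes were above background (57.1%) and 2 cleared the genes of other organs (28.6%), against 46.2% and 24.7% of all named genes. Rab7, which directs fusion with lysosomes, was at 9.57, 9.38, 9.45 and 9.55, with an adjusted detection p of 0.0108. Its paralog Rab7b was at 4.05, 4.11, 4.10 and 4.08, within the bulk of the background genes (adjusted p = 0.663). Rab9, which returns receptors from late endosomes to the Golgi, was at 7.96, 8.07, 7.96 and 8.0, while Rab9b was at 6.28, 6.30, 6.04 and 6.28 and not called. Thus in both families the detection test called 1 paralog and not the other. Rab9b lay near the limit, however, with an adjusted detection p of 0.0555, and limma's test called it, while it did not call Rab7b.

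Rab32 and Rab38 serve lysosome-related organelles such as melanosomes, and Rab29 is a relative of both. Rab32 was called at 7.49, 7.56, 7.40 and 7.14, with array 4 the lowest, and Rab29 at 7.38, 7.26, 7.26 and 7.18. Rab38 at 5.25 ± 0.06 was not called. Of the subunits of their exchange factor, Hps1 at 6.64 ± 0.08 and Hps4 at 6.82 ± 0.09 were called but did not clear the genes of other organs.

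Among the 9 genes of regulated secretion, 4 were above background and 2 of them, Rab27a and Rab37, cleared the genes of other organs. These shares, 44.4% and 22.2%, lie near the 46.2% and 24.7% of all named genes. Rab27a, which docks lytic granules at the membrane of cytotoxic lymphocytes and is lost in human Griscelli syndrome, was at 9.23, 9.31, 9.70 and 9.73 on arrays 1 to 4, so that arrays 3 and 4 were higher than arrays 1 and 2. Its paralog Rab27b, known from platelets and exocrine cells, was at 5.11, 5.22, 5.18 and 5.12 and was not called (adjusted p = 0.199). Rab37, known from mast cell granules, was at 8.99, 8.83, 8.99 and 9.28, with array 4 the highest. Rab26 was called at 7.34, 8.02, 7.61 and 7.82, with array 1 the lowest. Rab44, a large Rab known from mouse mast cells, was at 6.41, 6.47, 6.38 and 6.37, just above the limit.

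The 4 Rab3 genes drive the exocytosis of synaptic vesicles and of exocrine and mast cell granules. The detection test called 0 of the 4, against 46.2% of all named genes. However, 1 of the 4, Rab3d, lay under an unadjusted detection p of 0.05 and was called by limma's test. Rab3d was at 6.17, 6.12, 6.29 and 6.33, with an adjusted detection p of 0.0555. Rab3a was at 5.79, 5.79, 5.77 and 5.78, Rab3b at 4.35, 4.27, 4.36 and 4.28 and Rab3c at 4.03, 4.23, 4.18 and 4.18. The Rab3 values ranged over up to 0.20 log2 units between the arrays, at levels that background genes also reach. Equal values to all digits, on arrays 1 and 2 for Rab3a and on arrays 3 and 4 for Rab3c, can make a spread too small.

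The last 5 genes have other roles, and 3 of them were called (60%, against 46.2% of all named genes). Rab40c, whose protein carries a SOCS box that binds a ubiquitin ligase, was called at 6.99, 7.0, 6.73 and 6.81. Rab23, which restrains Hedgehog signalling at the cilium, was called at 7.11, 6.22, 6.09 and 6.60, with array 1 the highest, and was not called without array 1, at 6.30. Rab28, also of cilia, was called at 6.49, 6.54, 6.07 and 6.54, with array 3 apart from the others, and was not called without array 4, at 6.37. Rab40b was at 5.17 on all 4 arrays, equal to all digits given, and not called, and neither was Rab42 at 4.43, 4.31, 4.50 and 4.43. The 3 called genes did not clear the genes of other organs, which 24.7% of all named genes did.

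The machinery that switches, anchors and reads Rabs was examined as 4 lists. Of 172 regulators and effectors measured, 127 were called (73.8%, against 46.2% of all named genes) and 69 cleared the genes of other organs (24.7% of all named genes did). For anchoring, 11 of 13 genes were called (84.6%) and 8 cleared the genes of other organs (61.5%). Rabac1, a Rab acceptor of the Golgi, was at 9.76 ± 0.33, Gdi2, which extracts Rabs from membranes, at 9.48 ± 0.10, the escort protein gene Chm at 8.60 ± 0.12, Yipf5 at 8.54 ± 0.18 and Rabggtb, a subunit of that prenyl transferase, at 8.21 ± 0.03. Gdi2 and Rabggtb had equal values to all digits on arrays 1, 2 and 4, so that their SD can be too small. Chml, the paralog of Chm, at 5.51 ± 0.10 and the farnesyltransferase subunit Fntb at 5.86 ± 0.17 were not called.

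**Figure D2:**
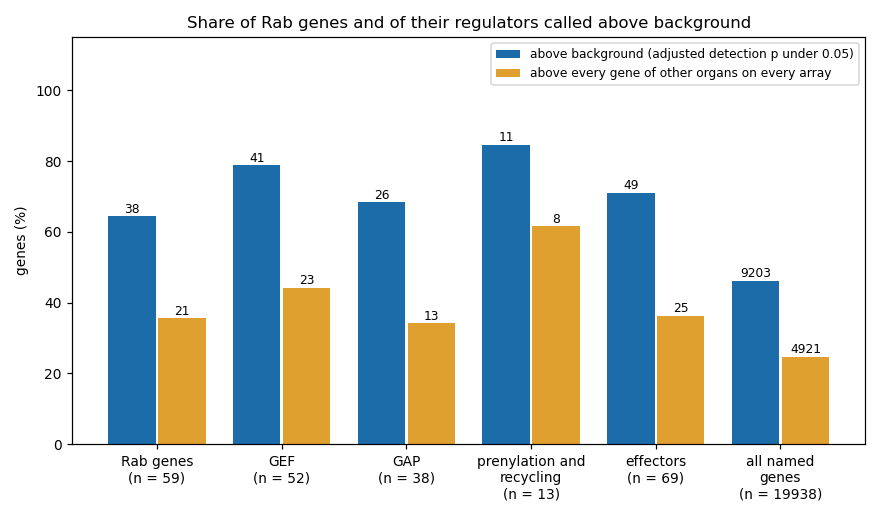
Share of genes (%, y axis) above background in blue and above every gene of other organs on every array in orange, for Rab genes, for 4 lists of their regulators and effectors, and for all named genes. Numbers on the bars count genes. The blue bars of the Rab genes (38 of 59) and of the 4 lists are all taller than that of all named genes (9203 of 19938).

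Exchange factors were called in 41 of 52 cases (78.8%, against 46.2% of all named genes). Of the 52, 23 cleared the genes of other organs (44.2%, against 24.7% of all named genes). The TRAPP subunits Trappc1 and Trappc3, whose complex activates Rab1, were at 9.90 ± 0.16 and 9.78 ± 0.25. Dennd3, which activates Rab12, was at 9.80 ± 0.15, Dennd4c, which activates Rab10, at 9.68 ± 0.13, and Dennd1c of the Rab35 exchange factor family at 9.40 ± 0.14. Rin2, a Rab5 exchange factor, at 6.36 ± 0.01 and Wdr41 at 6.34 ± 0.14 were not called. Rin2 had equal values to all digits on arrays 2 and 3, so that its SD can be too small. Rab12 and Rab35 themselves thus stood close to background on these arrays while Dennd3 and Dennd1c were well above it, each set against background and not against the other.

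Among GAPs, 26 of 38 were called (68.4%, against 46.2% of all named genes). Of the 38, 13 cleared the genes of other organs (34.2%, against 24.7% of all named genes). Tbc1d10c, known as Carabin, which dampens Ras and calcineurin signals in T cells and acts on Rab35, was at 9.40 ± 0.04. Rabgap1 was at 9.20 with an SD under 0.01, Rabgap1l at 8.86 ± 0.11, Tbc1d15, a GAP of Rab7, at 8.49 ± 0.17 and Tbc1d1, a GAP of Rab8 and Rab10, at 8.35 ± 0.11. Equal values to all digits, on arrays 1, 2 and 3 for Rabgap1 and on arrays 3 and 4 for Tbc1d1, can make an SD too small. Tbc1d10a, which acts on Rab27a, at 6.20 ± 0.10 and Tbc1d12 at 6.07 ± 0.31 were not called.

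Effectors were called in 49 of 69 cases (71.0%, against 46.2% of all named genes). Of the 69, 25 cleared the genes of other organs (36.2%, against 24.7% of all named genes). Gorasp2, a Golgi stacking protein, was at 9.19 ± 0.17, Exoc6, an exocyst subunit, at 8.96 ± 0.12, the Rab11 effector Rab11fip1 at 8.80 ± 0.07, Hook3 at 8.67 ± 0.18 and the Rab1 effector Uso1 at 8.60 ± 0.08. Gorasp1 at 6.31 ± 0.13 and Rab11fip3 at 6.17 ± 0.16 were not called. A set of 10 genes, effectors of Rab27 and the motor Myo5a, was looked at, chosen after the values were seen. It is not a complete family. It left out Rph3al at 6.38 ± 0.19, called, and Rph3a at 5.94 ± 0.07, not called, both on the effector list. Of the 10 genes, 6 were called, against 46.2% of all named genes. None of the 6 cleared the genes of other organs, against 24.7% of all named genes. Called were Sytl3 at 7.38 ± 0.17, Unc13d, which primes lytic granules, at 7.20 ± 0.05, Sytl1 at 6.90 ± 0.02, Myo5a, a myosin motor, at 6.80 ± 0.43, Mlph at 6.75 ± 0.03 and Myrip at 6.38 ± 0.05. Equal values to all digits, on arrays 1, 2 and 3 for Unc13d and on arrays 1 and 4 for Sytl1 and Myrip, can make an SD too small. Myo5a was at 6.88, 6.46, 7.38 and 6.48 on arrays 1 to 4, with array 3 the highest. The other 4, Sytl2 at 4.18 ± 0.08, Sytl4 at 5.28 ± 0.04, Sytl5 at 4.4 ± 0.03 and Exph5 at 4.41 ± 0.10, were not called.

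The Rab genes varied between arrays about as much as other genes did. The median SD of the 38 called Rab genes was 0.165 log2 units, against 0.168 for all 9203 genes above background. Of the 38, 1 had a range over the arrays of more than 1 log2 unit, against 6.23% of all genes above background, and that gene was Rab23, with an SD of 0.46. Next in SD came Rab2b (0.34), Rab4a (0.32), Rab19 (0.30), Rab11b (0.30), Rab26 (0.29), Rab6b (0.26) and Rab27a (0.26). The mean over the 38 genes was 8.15, 8.09, 8.10 and 8.18 on arrays 1 to 4, and that over all genes above background was 7.97, 7.97, 7.97 and 7.95. Of the 38 genes, 4 had the same value to all digits on at least 2 arrays (10.5%, against 10.9% of all genes above background), so that their SD can be too small.

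**Figure D3:**
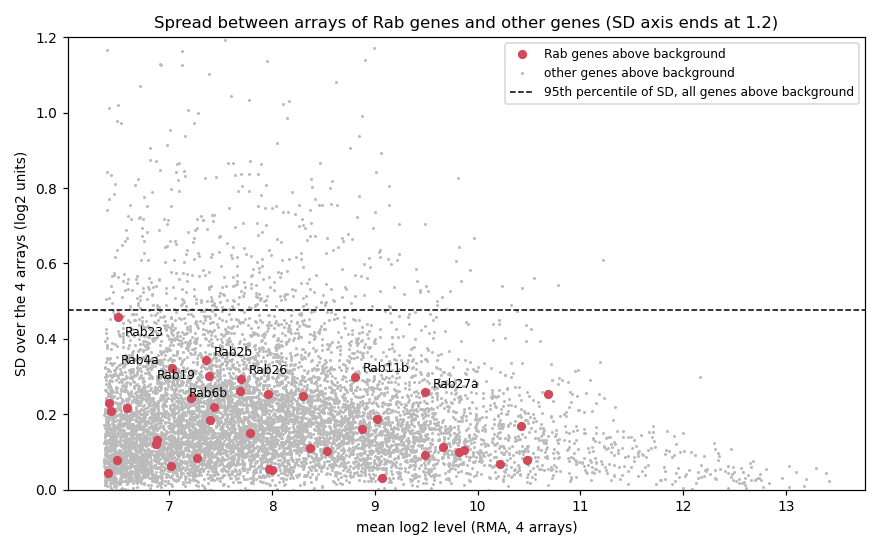
SD over the 4 arrays (log2 units, y axis) against the mean log2 level (x axis) of the 38 Rab genes above background in red and of all other genes above background in gray, with the 8 largest Rab SDs named. The dashed line is the 95th percentile of the SD of all genes above background (0.476), which no Rab gene passes, and 18 other genes lie beyond the end of the SD axis at 1.2.

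B cell markers moved between the arrays, and each Rab gene can be read beside them. Arrays 1 and 3 both lay above arrays 2 and 4 in 9 of 11 B cell markers. The same order was found in 7 Rab genes (11.9%), against 13% of all named genes, and the opposite order in 9 Rab genes (15.3%), against 17.5% of all named genes. The 7 genes were Rab11b, Rab12, Rab1b, Rab22a, Rab30, Rab3b and Rab43. Rab11b had this order only in the probe set used, which lies by number among genes of another chromosome, and 6 Rab genes had it with probe sets on the genes' own chromosomes. Rab30 was at 5.31, 4.98, 5.46 and 4.82, not called, beside the B cell list means of 8.78, 7.86, 8.96 and 7.82. The part of B cells in these values was not tested.

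For 3 Rab genes the platform annotation listed a pair of probe sets, and they did not always give the same value. Probe set numbers on this array follow the order of genes along chromosomes, and for 96.9% of 21698 named probe sets the gene lay on the chromosome of most of its 10 nearest neighbours by number. This held for 59 of the 62 Rab probe sets. The 3 that departed were 1 probe set each of Rab2a, Rab5b and Rab11b.

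Rab11b differed most. The probe set with the higher mean, used above, was at 8.99, 8.36, 8.96 and 8.93, but by number it lies among genes of chromosome 19, between those of Spindoc and Rtn3, where RefSeq places the pseudogene Rab11b-ps2. The probe set among genes of chromosome 17, where the Rab11b gene lies, was at 7.08, 6.87, 6.60 and 6.39. Its mean of 6.73 was still called but did not clear the genes of other organs, so that 20 Rab genes cleared them with the probe sets on the genes' own chromosomes. For Rab2a the probe set used, at 10.69 ± 0.25, lies by number among genes of chromosome 5, and that among genes of its own chromosome 4 was at 10.36, 10.32, 10.25 and 10.15, also far above background. For Rab5b both probe sets gave nearly the same values, at 7.21 ± 0.24 and 7.20 ± 0.22. Which transcripts each probe set binds was not tested.

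**Figure D4:**
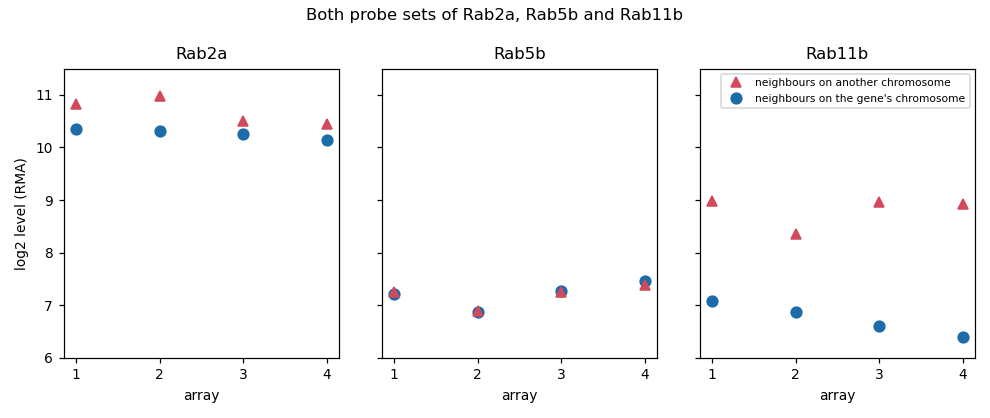
Log2 level (RMA, y axis) of both probe sets of Rab2a, Rab5b and Rab11b on arrays 1 to 4 (x axis). Red triangles are probe sets whose neighbours by number lie on another chromosome than the gene, blue circles those on the gene's own chromosome. The pair coincides for Rab5b, lies within 0.66 log2 units for Rab2a and stands apart by 1.49 to 2.54 log2 units for Rab11b.

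Promoters were examined for what called and uncalled Rab genes share, from the RefSeq promoter table of build GRCm38.p6, which gives 300 bases per start site, 250 before it and 50 after. It held 48 of the 59 genes. Broadly used genes often have promoters rich in CpG dinucleotides, which are otherwise rare in mammalian DNA. The median ratio of observed to expected CpG was 0.776 in 32 called Rab genes and 0.678 in 16 uncalled ones, against 0.766 in 7427 of all genes above background and 0.369 in 8187 of all genes not called. A ratio above 0.6 was found in 26 of the 32 called and 9 of the 16 uncalled Rab genes, against 72.9% of all genes above background and 31.3% of all genes not called.

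A CpG-rich and a CpG-poor promoter are shown by the 150 bases just before the start site of Rab10, called at 9.87 ± 0.10, and of Rab3b, not called at 4.32 ± 0.05, with each CpG in capitals. Neither is typical of its group, since the CpG ratio of the whole window was 1.03 in Rab10 and 0.40 in Rab3b, against the medians of 0.776 and 0.678. The Rab10 stretch lies at chr12:3309970-3310119 on the minus strand and holds 22 CpG. The Rab3b stretch lies at chr4:108878920-108879069 on the plus strand and holds 5.
Rab10: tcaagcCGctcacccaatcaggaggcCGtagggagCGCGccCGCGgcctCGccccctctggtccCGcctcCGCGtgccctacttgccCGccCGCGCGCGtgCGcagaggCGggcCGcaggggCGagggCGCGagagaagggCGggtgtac
Rab3b: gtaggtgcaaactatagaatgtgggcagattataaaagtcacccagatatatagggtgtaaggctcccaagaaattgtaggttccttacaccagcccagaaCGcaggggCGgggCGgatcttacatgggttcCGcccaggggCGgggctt

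**Figure D5:**
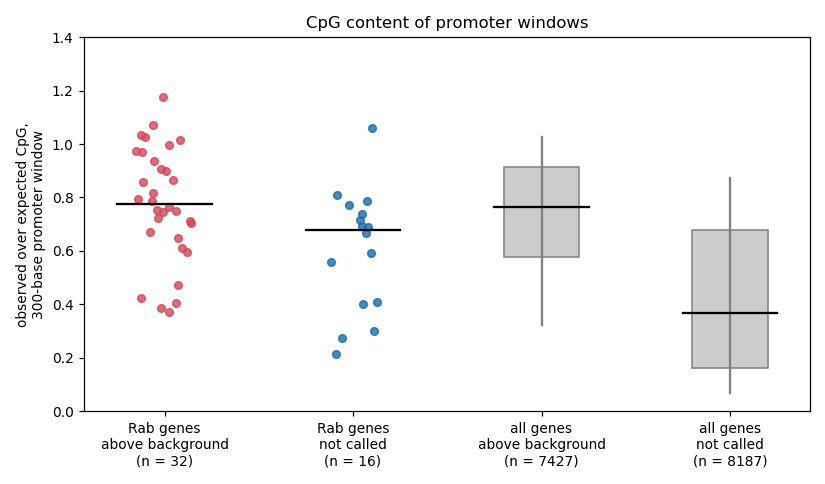
Ratio of observed to expected CpG in the 300-base promoter window (y axis). Points are Rab genes above background (red) and not called (blue) with their medians as lines, and gray boxes give the 25th to 75th percentile, whiskers the 10th to 90th and lines the median of all genes above background and not called. The points of both Rab groups lie mostly above the middle of the box of all genes not called, with medians of 0.776 and 0.678 against 0.369.

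Short motifs were searched on both strands of these windows. The core of the CLEAR element, TCACGTGA, to which the lysosomal regulator TFEB and its relatives are known to bind, was found in 3 of 32 called Rab genes, against 2.38% of all genes above background, and in 0 of 16 uncalled ones, against 0.745% of all genes not called. The 3 genes, Rab21, Rab24 and Rab5a, were all in the early endosome group as drawn up here, although Rab24 has also been tied to autophagy. Equal values to all digits, on arrays 2 and 4 for Rab21 and on arrays 3 and 4 for Rab24, can make an SD too small. The 3 genes were called at 10.48 ± 0.08, 9.07 ± 0.03 and 7.97 ± 0.06 and varied little between the arrays. Their core is shown in capitals with the bases around it, since these are the only Rab windows that hold it, at chr10:115315604-115315633 (minus strand) for Rab21, chr13:55321961-55321990 (minus strand) for Rab24 and chr17:53479127-53479156 (plus strand) for Rab5a.
Rab21: gcccaccgcggTCACGTGAcgaggggtgtg
Rab24: cggcgcccgcgTCACGTGAccgggcgtccc
Rab5a: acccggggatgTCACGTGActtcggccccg

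The core lies 31 bases before the annotated start in Rab21, 96 bases before it in Rab5a and at the start in Rab24. The E box CACGTG, which every CLEAR core contains, was found in 6 of 32 called Rab genes, the other 3 being Rab20, Rab23 and Rab27a, and in 0 of 16 uncalled ones, against 11.9% of all genes above background and 7.28% of all genes not called. The GC box GGGCGG was found in 23 of 32 called Rab genes, which is 71.9% against 68.7% of all genes above background, and in 13 of 16 uncalled Rab genes, against 38.6% of all genes not called. The CCAAT box CCAAT was found in 18 of 32 called Rab genes and 8 of 16 uncalled ones, against 42.2% of all genes above background and 41.2% of all genes not called. The TATA box TATAAA was found in Rab7 among called Rab genes and in Rab39b, Rab3b and Rab42 among uncalled ones, against 8.40% of all genes above background and 18.3% of all genes not called. The ETS site CCGGAAG was found in 4 of 32 called Rab genes, against 21.7% of all genes above background, and in 1 of 16 uncalled ones, against 6.27% of all genes not called. Few Rab windows held the other motifs. Of the 32 called Rab genes, 2 held the CRE TGACGTCA, against 3.69% of all genes above background, 2 the YY1 site AAGATGGCG, against 4.05%, and 1 the ROR element TAGGTCA, against 2.29%. Of the 16 uncalled Rab genes, 1 held the YY1 site, against 0.684% of all genes not called. A match gives letters and no binding, and the members were not chosen for these motifs.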

How the data were processed

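RNA of 4 samples of sorted ILC3, 1 group, was measured on arrays. The authors deposited log2 values, 1 per probe set and array, from RMA, per the submitters' processing notes; its version is not given in the sources used here. RMA corrects background, normalizes between arrays and summarises probes, which pulls arrays together and can give equal values. Scanner files were not used, and the number of arrays limits the precision. Of 35556 probe sets, 21789 had 1 symbol in GEO's platform annotation, 1621 several (left unnamed) and 12146 were not listed. All genes took the probe set with the highest mean (999 genes had several).

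The detection p was 1 plus the number of the 1241 background genes at or above a gene's mean, over 1 plus their number. It is one-sided, at least 0.000805, and was adjusted by Benjamini-Hochberg over 19938 genes. Of the background genes 27 were called. limma 3.58.1 tested levels minus each array's 95th percentile of background. The labels do not say that samples are separate animals, so spreads and p-values may be partly technical. Scripts ran in Python 3.11.15 and R 4.3.3 and were tested on simulated data.

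All Rab genes are named. Values on every array were given, within each role, for up to 4 called genes and 1 uncalled gene with the highest means, for the 8 largest SDs and for the Rab3, Rab5, Rab7, Rab11 and Rab27 paralogs. Of each regulator list up to 5 called and 2 uncalled genes with the highest means were named. Genes beyond this, such as the Rab27 effectors, Hps1, Hps4 and further per-array values, were chosen after their values were seen. Members and lists were chosen with earlier results of these data known. Of 181 listed regulators and effectors, 9 were not analysed here. Motifs and promoters were chosen after the levels were known.

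Alternatives varied the probe set rule, the call rule, the background genes, symbols, normalization and the arrays used; leaving out the 3 misplaced Rab probe sets was added after seeing the data.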

Additional observations from a re-analysis of the deposited data

Results flagged for a closer look

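In 4 of 58 Rab genes that varied at all, 1 array lay far from the other 3, by a Dixon ratio above its 95% critical value, which chance passes in about 1 in 20 groups of 4. Rab11b (the probe set among genes of chromosome 19) was at 8.36 on array 2, where the next value was 8.93. Rab20 was at 6.69 on array 3, with the next at 6.92. Rab28 was at 6.07 on array 3, with the next at 6.49. Rab9b, not called, was at 6.04 on array 3, with the next at 6.28. The cause was not tested.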

How the results depend on the processing

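The count of Rab genes above background was 38 with the mean of all probe sets, updated symbols, renewed quantile normalization or without the 3 misplaced probe sets, 33 with olfactory receptors alone as background (43.1% of all named genes), 45 by both looser rules (54.4% and 54.0%), and 35 to 40 without 1 array (44.3% to 48.0%). Above the genes of other organs on every array lay 21 Rab genes and 69 regulators and effectors, against 38 and 127 above background. The other counts of regulators and effectors ranged from 122 to 141, and 124 to 130 without 1 array. The median log2 level of Rab genes was 6.90 to 7.02 without 1 array and 6.88 without the 3 misplaced probe sets. The median SD lay between 0.125 and 0.182 in all settings that recomputed it. Under the rule on genes of other organs 17 of the 38 called Rab genes lost the call. Over 10 alternatives other than that rule and the updated symbols, 33 called and 14 uncalled Rab genes kept their call and 12 did not. With olfactory receptors alone, Rab23, Rab25, Rab28, Rab35 and Rab44 lost it. Without array 3, Rab25, Rab35 and Rab44 lost it, at 6.46, 6.45 and 6.41, without array 1 Rab23 did, at 6.30, and without array 4 Rab28 did, at 6.37. Rab13 and Rab3d gained it without array 2, at 6.30 and 6.26, and both looser rules added Rab13, Rab17, Rab33b, Rab36, Rab39b, Rab3d and Rab9b. The causes were not tested. No paired analysis was possible because there is 1 group. Levels under 7.42 cannot be told from those of genes of other organs.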
